A study of Mus musculus with 235 samples.

Results

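Errfi1, the 4 ErbB receptor genes and 3 genes of ErbB ligands were followed through 8 regions of the mouse brain after a single dose of a synthetic glucocorticoid. The 8 genes, Errfi1, Egfr, Erbb2, Erbb3, Erbb4, Nrg1, Nrg3 and Hbegf, were chosen by symbol and each matched 1 of the 27998 genes in the deposited count table. Errfi1 rose in 8 of 8 regions, by 2.53-fold in vCA1 to 3.99-fold in CER, where 3.7 to 6.18% of all genes tested in a region passed. Erbb3, which has few counts, fell in 5 of 8 regions when genes of low count were kept in the test, which 2.44 to 4.06% of genes then passed, and in 4 with the authors' log2 values and limma. Hbegf fell in PFC, and Egfr, Erbb2, Erbb4, Nrg1 and Nrg3 passed the test in no region, though Egfr passed in 2 once surrogate variables (estimated unlabelled sources of variation) were added to the fit.

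ErbB receptors are tyrosine kinases of the cell surface that pair with each other when a ligand binds. EGFR binds ligands such as HB-EGF, ERBB3 and ERBB4 bind neuregulins, ERBB2 has no known ligand of its own and serves as a partner, and ERBB3 has a weak kinase and signals mainly through its partners. Errfi1, also called Mig6, encodes a cytoplasmic protein that binds the kinase domain of ErbB receptors and inhibits it, and that takes part in their removal from the surface. In the brain, neuregulin and ERBB4 are best known from inhibitory interneurons, and ERBB3 from cells of the oligodendrocyte lineage.

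All animals were adult male C57Bl/6 mice aged 3 months, with no genetic change named in the labels. Of 30 animals, 15 (CNTRL) were injected in the abdomen with saline and 15 (DEX) with dexamethasone at 10 mg per kg, a synthetic glucocorticoid, and tissue was taken after 4 h, so 1 dose and 1 time were measured. After perfusion, tissue was punched from regions that the labels call PFC, AMY, PVN, CER, dCA1, vCA1, dDG and vDG, and each library holds 1 region of 1 animal. The groups held 14 or 15 vehicle and 13 to 15 dexamethasone libraries per region. Each library counts tags from the 3′ ends of messenger RNA, with molecular identifiers, so the counts follow the number of molecules and not gene length. A level in CPM is the count divided by the library's total after trimmed mean of M values (TMM) scaling, times 1000000, and levels are compared between samples of 1 gene and not between genes.

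The median library held 742957 counts, the smallest 268538 and the largest 1451422. At these totals 3 counts, the most that an observed 0 allows, correspond to 1.95 to 12.8 CPM, for counting error only. The authors' tables of variance-stabilised values do not list 7 of the libraries, and these were kept here. Summed markers of dentate granule cells had vehicle medians of 1193 CPM in dCA1, 945 in dDG, 376 in vDG and 208 in vCA1. Single vehicle libraries ran from 564 to 1561 CPM in dCA1 and from 174 to 1921 in dDG, so these markers did not set libraries labelled dCA1 apart from those labelled dDG, and every hippocampal result below carries the region of its label. Summed endothelial markers were lower with dexamethasone: over the 8 regions of an animal they ran from 383 to 450.4 CPM with vehicle and from 254 to 319 CPM with dexamethasone, and 6 of 7 fell singly, where 18.6% of all genes were called in either direction. Summed microglial markers ran from 352 to 475 CPM and from 327 to 438 CPM, with 2 of 7 lower, no single marker of these 2 lists was at 0 counts in a whole region, and the part of any of them in the results below was not tested. In such bulk tissue, fewer cells of a type and less RNA per cell cannot be told apart.

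Positions are on GRCm38 (mm10), with each gene spanning the first to the last exon base in the count table: Errfi1 (ENSMUSG00000028967) chr4:150853919-150868892, plus strand, Egfr (ENSMUSG00000020122) chr11:16752203-16918158, plus strand, Erbb2 (ENSMUSG00000062312) chr11:98412470-98437716, plus strand, Erbb3 (ENSMUSG00000018166) chr10:128567523-128589652, minus strand, Erbb4 (ENSMUSG00000062209) chr1:68032186-69108059, minus strand, Nrg1 (ENSMUSG00000062991) chr8:31814551-32884029, minus strand and Nrg3 (ENSMUSG00000041014) chr14:38368952-39473088, minus strand. All 8 are protein-coding genes and the counts refer to their exons. No exon of Errfi1, Egfr, Erbb3, Erbb4, Nrg3 or Hbegf overlapped an exon of another gene in the table. Erbb2 shared 9 exon bases with Mien1 on the other strand, and Nrg1 shared 482 with Gm26578, also antisense, which had 32 counts in all libraries together. Since the use of strand in the counting is not stated, reads in those stretches could belong to either gene.

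Because Errfi1 was the member that rose throughout, the 250 bases before each of its annotated RefSeq transcription starts (GRCm38.p6, plus strand) are printed here. Letters of the glucocorticoid receptor's recognition sequence would stand in capitals, and there are none in either stretch.
Errfi1 upstream of first start, chr4:150853546-150853795: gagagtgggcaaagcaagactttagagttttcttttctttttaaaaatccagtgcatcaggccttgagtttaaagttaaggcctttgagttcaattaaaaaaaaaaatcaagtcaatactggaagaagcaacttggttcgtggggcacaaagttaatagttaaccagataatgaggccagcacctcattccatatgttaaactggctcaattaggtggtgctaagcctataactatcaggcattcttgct
Errfi1 upstream of second start, chr4:150854820-150855069: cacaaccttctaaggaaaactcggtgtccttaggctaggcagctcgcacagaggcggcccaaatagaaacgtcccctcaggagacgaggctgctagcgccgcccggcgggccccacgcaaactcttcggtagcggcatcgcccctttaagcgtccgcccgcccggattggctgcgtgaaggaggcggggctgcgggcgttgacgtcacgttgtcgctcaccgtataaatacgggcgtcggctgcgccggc
Windows of 300 bases, from 250 before to 50 after a start, were searched on both strands for the half-site AGAACA, for the full pair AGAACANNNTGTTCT, which contains the half-site, and for the looser pair GNACANNNTGTNC, which overlaps both. The table holds 6 such windows for 5 of the 8 genes, Errfi1 having 2 and Egfr, Erbb2, Erbb4 and Nrg3 having 1 each. None of the 3 patterns was found in any of the 6. Over all 32851 windows in the table, 19.0% held the half-site, 0.475% the looser pair and 0.009% the full pair. The absence of a match says only that these letters are not in these windows.

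Errfi1 was higher after dexamethasone in every region, and in 5 of 8 regions the groups did not overlap. Of all genes tested, groups that did not overlap, in either direction, were found for 0.62% in CER, 0.43% in AMY, 0.413% in PFC, 0.399% in PVN, 0.329% in vCA1, 0.226% in vDG, 0.195% in dCA1 and 0.117% in dDG. In AMY, vehicle libraries ran from 10.4 to 23.4 CPM with a median of 17.0, and dexamethasone libraries from 38.4 to 109 CPM with a median of 59.2. In CER, vehicle libraries ran from 8.68 to 38.8 CPM with a median of 23.0, and dexamethasone libraries from 62.2 to 119.8 CPM with a median of 94.8. In PFC, vehicle libraries ran from 9.47 to 29.6 CPM with a median of 18.4, and dexamethasone libraries from 30.5 to 99.5 CPM with a median of 63.0. In these 3 regions every dexamethasone library lay above the highest vehicle library. The PVN range was 10.4 to 24.4 CPM with vehicle (median 17.8) and 37.2 to 68.4 CPM with dexamethasone (median 45.8). The dDG range was 17.2 to 38.1 CPM with vehicle (median 24.1) and 41.0 to 119.7 CPM with dexamethasone (median 81.1). The groups were separate there as well. Errfi1 in dCA1 had a vehicle median of 22.1 CPM (lowest 17.1, highest 39.9) and a dexamethasone median of 68.0 CPM (lowest 36.4, highest 88.3). Errfi1 in vCA1 had a vehicle median of 20.6 CPM (lowest 5.65, highest 33.0) and a dexamethasone median of 50.5 CPM (lowest 28.4, highest 67.7). Errfi1 in vDG had a vehicle median of 25.9 CPM (lowest 13.3, highest 57.1) and a dexamethasone median of 81.3 CPM (lowest 48.3, highest 239). In the last 3 regions the groups overlapped at their edges: 12 of 13 dexamethasone libraries lay above the highest vehicle library in dCA1, 13 of 15 in vCA1 and 13 of 15 in vDG. All dexamethasone libraries of all 8 regions lay above their region's vehicle median.

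**Figure D1:**
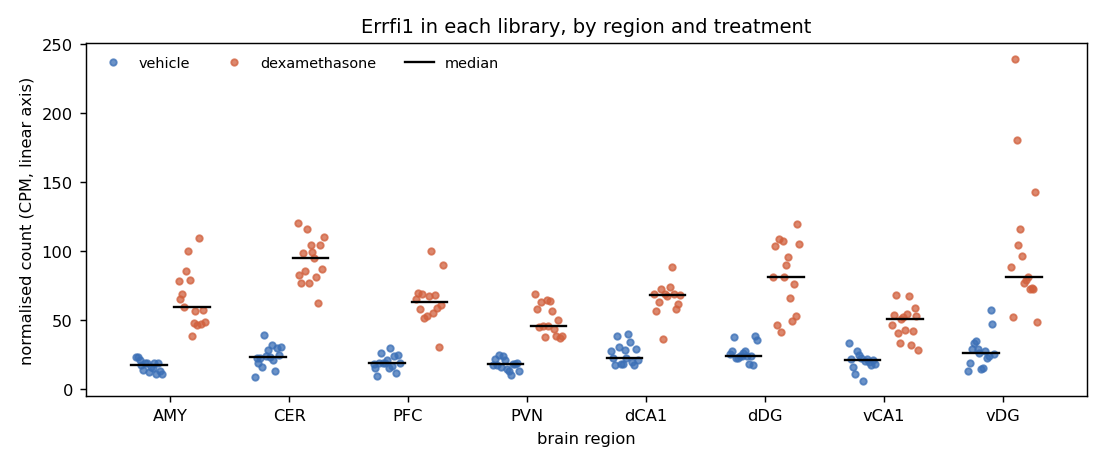
Errfi1 level in CPM (vertical axis, linear) in each library of the 8 regions (horizontal axis), with vehicle in blue, dexamethasone in orange and the group median as a black line. Dexamethasone points lie above all vehicle points in AMY, CER, PFC, PVN and dDG, and the widest dexamethasone spread is in vDG, from 48.3 to 239 CPM.

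Fitted log2 fold changes (± SE) were 2.00 ± 0.13 in CER, 1.97 ± 0.15 in AMY, 1.90 ± 0.20 in vDG, 1.72 ± 0.14 in PFC, 1.61 ± 0.15 in dDG, 1.47 ± 0.13 in PVN, 1.37 ± 0.13 in dCA1 and 1.34 ± 0.15 in vCA1. Each passed edgeR's quasi-likelihood test, with Benjamini-Hochberg adjusted p between 2.26e-15 in CER and 1.93e-08 in vCA1. The share of all tested genes called in either direction was 6.18% in CER, 6.14% in PFC, 5.63% in PVN, 5.62% in AMY, 5.45% in vCA1, 4.68% in dCA1, 3.93% in vDG and 3.7% in dDG. With the replicate number as a block, the number of genes called in dDG was 543 in place of 316. By size of increase Errfi1 ranked between 6 in dDG and 26 in vCA1 among the genes tested in each region. Its difference was positive in 32 of 32 combinations of region and date of punching that held at least 2 libraries of each group, which leaves out 1 of the 5 dates, and in 32 of 32 combinations of region and plate.

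The size of the Errfi1 response was then compared between regions. In a fit over all libraries the interaction of region and treatment gave an unadjusted p of 0.0137 and an adjusted p of 0.385 for Errfi1, so the regions were not shown to differ in their response. That fit does not hold the animal, which gave all 8 regions, and with the animal as a block the adjusted p was 0.408 for Errfi1 and 0.369 for Egfr. Without the block Egfr had an adjusted p of 0.441, and Erbb4, Nrg1, Nrg3 and Hbegf had larger values. None of the 6 members tested passed in either fit, and without the block 1.17% of all genes did. A call in 1 region and its lack in another, as for Hbegf, is therefore not a shown difference between regions. In vCA1, summed dentate markers had a median of 208 CPM with vehicle and 319 CPM with dexamethasone. With the mean log2 CPM of these markers other than Prox1 as a covariate, the Errfi1 log2 fold change in vCA1 was 1.39 ± 0.17. It was 1.35 in dCA1, 1.61 in dDG and 1.91 in vDG with the same covariate.

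**Figure D2:**
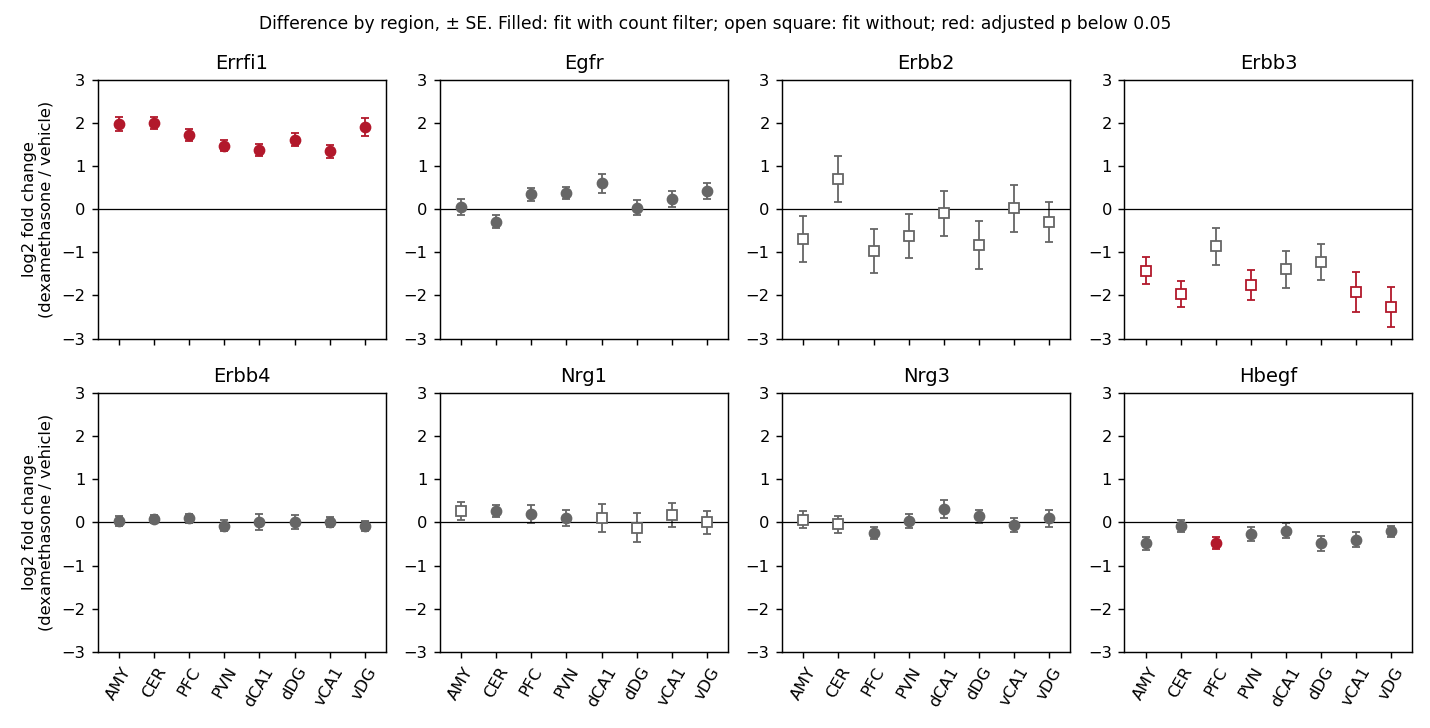
Log2 fold change of dexamethasone over vehicle (vertical axis, ± SE) in the 8 regions (horizontal axis), 1 panel per gene, with filled circles from the fit with a filter on low counts, open squares from the fit without it, and red for an adjusted p below 0.05. Errfi1 lies above 0 and Erbb3 below 0 in all 8 regions, and Erbb4 stays between -0.08 and 0.10.

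Erbb3, the neuregulin receptor with a weak kinase, was lower after dexamethasone in all 8 regions on fitted values. Its counts were small, 701 over all libraries, and it passed edgeR's filter on low counts in no region. In CER, vehicle libraries ran from 1.93 to 20.0 CPM with a median of 12.1, and dexamethasone libraries from 0 to 7.78 CPM with a median of 2.54. In AMY, vehicle libraries ran from 2.13 to 15.6 CPM with a median of 10.6, and dexamethasone libraries from 0 to 9.13 CPM with a median of 2.92. In PVN, vehicle libraries ran from 2.51 to 11.7 CPM with a median of 6.69, and dexamethasone libraries from 0 to 5.26 CPM with a median of 1.54. The groups overlapped in these regions, but no dexamethasone library lay above the vehicle median. The vDG range was 0 to 13.8 CPM with vehicle (median 5.45) and 0 to 5.25 CPM with dexamethasone (median 0). The vCA1 range was 0 to 10.4 CPM with vehicle (median 4.76) and 0 to 4.04 CPM with dexamethasone (median 0). In vDG 8 of 15 dexamethasone libraries had no Erbb3 count against 1 of 15 with vehicle, and in vCA1 8 of 15 against 3 of 14. Erbb3 in dDG had a vehicle median of 4.08 CPM (lowest 0, highest 10.0) and a dexamethasone median of 1.64 CPM (lowest 0, highest 3.76). Erbb3 in dCA1 had a vehicle median of 3.80 CPM (lowest 0, highest 9.97) and a dexamethasone median of 1.91 CPM (lowest 0, highest 4.45). Erbb3 in PFC had a vehicle median of 2.20 CPM (lowest 0, highest 11.7) and a dexamethasone median of 1.98 CPM (lowest 0, highest 4.13). The vehicle medians of all 8 regions, 2.20 CPM in PFC to 12.1 CPM in CER, lay within the range that 3 counts span over the libraries. The last 3 regions had the lowest vehicle medians, and each held 16 to 19 counts over its dexamethasone libraries.

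In the same quasi-likelihood fit without the filter, Erbb3 fell in 5 regions, with log2 fold changes of -1.97 ± 0.30 (adjusted p = 3.42e-06) in CER, -1.76 ± 0.35 (adjusted p = 0.000393) in PVN, -2.27 ± 0.46 (adjusted p = 0.00119) in vDG, -1.43 ± 0.32 (adjusted p = 0.00270) in AMY and -1.92 ± 0.47 (adjusted p = 0.00716) in vCA1. It missed the threshold in dCA1 at -1.40 ± 0.43 (adjusted p = 0.0621), in dDG at -1.22 ± 0.41 (adjusted p = 0.127) and in PFC at -0.86 ± 0.43 (adjusted p = 0.387). Of all genes, that fit called 4.06% in PFC, 3.76% in vCA1, 3.7% in CER, 3.54% in PVN, 3.45% in AMY, 3.03% in dCA1, 2.69% in vDG and 2.44% in dDG. Without the 7 libraries that the variance-stabilised tables lack, it fell in 5 regions. With the authors' log2 values from those tables and limma it fell in 4, since in vCA1 it missed the threshold at -0.32 ± 0.11 (adjusted p = 0.0860). The difference was negative in 31 of 32 of these combinations of region and date and in 31 of 32 of region and plate.

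**Figure D3:**
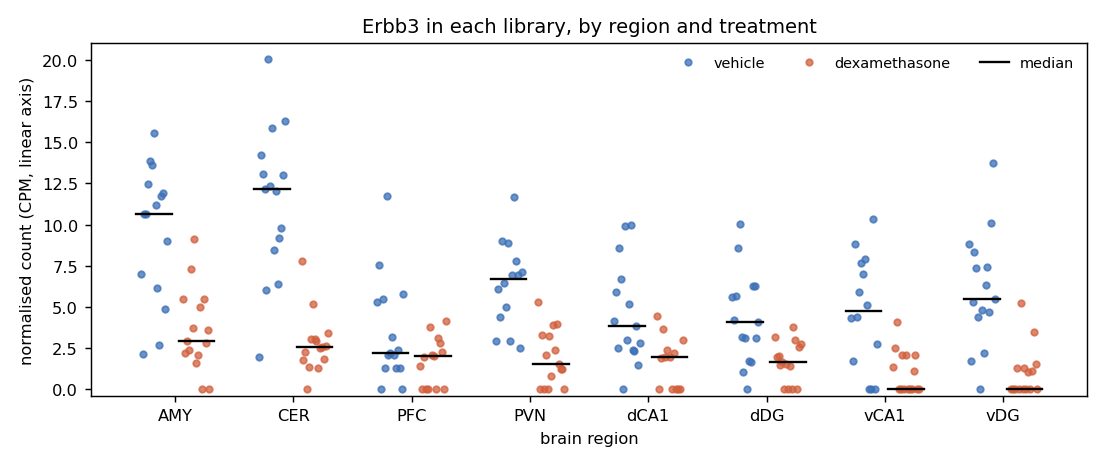
Erbb3 level in CPM (vertical axis, linear) in each library of the 8 regions (horizontal axis), with vehicle in blue, dexamethasone in orange and the group median as a black line. The vehicle medians are highest in CER and AMY, and the dexamethasone medians of vCA1 and vDG are 0.

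To raise the counts behind Erbb3, counts were summed over the 8 regions of each animal, for the 13 vehicle and 13 dexamethasone animals with all 8 libraries. This test was chosen after the region values had been seen, it weights regions by their depth, and the totals ran from 4760039 to 7076142 counts. Erbb3 had 26 to 49 counts per vehicle animal with a median of 41, and 5 to 19 per dexamethasone animal with a median of 12. The groups did not overlap, as for 2.97% of all genes tested in these sums. The level was 6.30 ± 1.18 CPM (SD, n = 13) with vehicle and 1.97 ± 0.726 CPM (SD, n = 13) with dexamethasone, a log2 fold change of -1.67 ± 0.14 (edgeR, adjusted p = 3.48e-11), or 3.19-fold lower. On the mean log2 CPM of an animal, with the prior count of 2, limma gave -0.90 ± 0.08 (adjusted p = 8.20e-12). In this comparison 18.6% of all genes were called. The filter on low counts admitted Erbb3 in these sums through the vehicle group, where it is high. This call and the lack of overlap are therefore a description.

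Markers of the oligodendrocyte lineage stood as follows in the same sums. The 7 markers of mature oligodendrocytes summed to 4499 to 6815 CPM with vehicle and 4199 to 6666 CPM with dexamethasone, ranges that overlap. Of these, 4 of 7 fell and the median log2 fold change was -0.19, against -0.01 over all genes. Mog, a protein of the myelin surface, fell by 0.38 ± 0.07 on the log2 scale and Mag, a myelin adhesion protein, by 0.28 ± 0.07. Cldn11, a claudin of myelin, fell by 0.20 ± 0.06 and Cnp, a myelin enzyme, by 0.19 ± 0.06. Mbp and Mobp did not pass, with log2 fold changes of 0.01 ± 0.07 for Mbp and 0.12 ± 0.09 for Mobp. The 5 markers of oligodendrocyte precursors summed to 227 to 306 CPM and 222 to 321 CPM, with 1 higher and 1 lower. The part of these markers in the Erbb3 result was not tested.

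Egfr, the receptor of HB-EGF and related ligands, passed the test in none of the 8 regions (0 of 8), and in 4 its unadjusted p was under 0.05. In dCA1, vehicle libraries ran from 2.81 to 25.7 CPM with a median of 12.5, and dexamethasone libraries from 11.0 to 30.3 CPM with a median of 20.1. In PVN, vehicle libraries ran from 8.31 to 28.2 CPM with a median of 15.7, and dexamethasone libraries from 16.9 to 30.9 CPM with a median of 21.7. In PFC, vehicle libraries ran from 5.94 to 23.9 CPM with a median of 16.8, and dexamethasone libraries from 10.2 to 34.1 CPM with a median of 22.7. The groups overlapped, though all 15 PVN dexamethasone libraries lay above the vehicle median. Fitted log2 fold changes were 0.60 ± 0.22 (adjusted p = 0.140) in dCA1, 0.43 ± 0.19 (adjusted p = 0.314) in vDG, 0.38 ± 0.14 (adjusted p = 0.126) in PVN and 0.34 ± 0.16 (adjusted p = 0.268) in PFC. The values in vCA1, AMY and dDG were 0.23 ± 0.18, 0.05 ± 0.18 and 0.04 ± 0.17. CER had a negative value, -0.29 ± 0.16 (adjusted p = 0.438). With surrogate variables added to the edgeR fit, Egfr rose in dCA1 by 0.90 ± 0.21 (adjusted p = 0.00190) and in vDG by 0.59 ± 0.15 (adjusted p = 0.00974), and in the other 6 regions it did not pass. Median Egfr levels in the other regions, in CPM, were 15.9 with vehicle and 22.4 with dexamethasone in vDG, 17.7 with vehicle and 20.6 with dexamethasone in vCA1, 20.0 with vehicle and 16.5 with dexamethasone in CER, 17.3 with vehicle and 17.4 with dexamethasone in AMY and 15.4 with vehicle and 15.4 with dexamethasone in dDG. Summed over the regions of an animal, Egfr was 16.6 ± 2.46 CPM (SD, n = 13) with vehicle and 19.8 ± 2.15 CPM (SD, n = 13) with dexamethasone, groups that overlap, and it rose by 0.26 ± 0.07 on the log2 scale (edgeR, adjusted p = 0.00585). Differences by region and date, with the same date left out, were positive in 24 of 32 cases, and by region and plate in 25 of 32.

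Erbb4, the neuregulin receptor of interneurons, differed by less than its error in every region. In CER, vehicle libraries ran from 58.9 to 101 CPM with a median of 76.2, and dexamethasone libraries from 61.1 to 120.3 CPM with a median of 71.8. In PVN, vehicle libraries ran from 53.7 to 95.0 CPM with a median of 66.7, and dexamethasone libraries from 19.5 to 103 CPM with a median of 63.0. In dCA1, vehicle libraries ran from 20.1 to 107 CPM with a median of 33.0, and dexamethasone libraries from 12.3 to 55.0 CPM with a median of 34.3. The groups overlapped in each of these regions. Over the 8 regions the log2 fold change lay between -0.08 and 0.10 with SEs of 0.10 to 0.19. Median Erbb4 levels elsewhere, in CPM, were 68.8 with vehicle and 78.8 with dexamethasone in AMY, 57.4 with vehicle and 57.7 with dexamethasone in vDG, 59.2 with vehicle and 57.2 with dexamethasone in vCA1, 48.3 with vehicle and 54.7 with dexamethasone in PFC and 33.6 with vehicle and 39.0 with dexamethasone in dDG. In the sums per animal Erbb4 was 57.8 ± 6.95 CPM with vehicle and 57.8 ± 4.94 CPM with dexamethasone (SD, n = 13 each), a log2 difference of 0.00 ± 0.06. Of the interneuron markers, 0 of 6 rose and 0 fell in those sums. Erbb2, the receptor without a ligand of its own, had 200 counts in all libraries together, 0 to 5 in any library, and 4 to 13 per vehicle animal against 2 to 11 per dexamethasone animal. It passed in 0 of 8 regions without the filter, where no unadjusted p was under 0.05. No difference was detected at this depth, and the size that could have been detected was not tested.

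Hbegf encodes the membrane-bound precursor of HB-EGF, a ligand of EGFR and ERBB4, and was the only ligand gene of the 3 that passed the test in a region. It lies on chromosome 18, minus strand, and its identifier is ENSMUSG00000024486. In PFC, vehicle libraries ran from 12.6 to 45.1 CPM with a median of 29.2, and dexamethasone libraries from 10.8 to 27.9 CPM with a median of 21.9. In AMY, vehicle libraries ran from 13.2 to 48.1 CPM with a median of 40.5, and dexamethasone libraries from 16.0 to 33.5 CPM with a median of 23.9. In dDG, vehicle libraries ran from 11.0 to 43.0 CPM with a median of 22.2, and dexamethasone libraries from 5.09 to 24.5 CPM with a median of 18.0. In PFC and AMY no dexamethasone library lay above the vehicle median, and the groups overlapped in all 8 regions. Median Hbegf levels in the remaining 5 regions, in CPM, were 35.0 with vehicle and 23.7 with dexamethasone in vCA1, 30.9 with vehicle and 31.2 with dexamethasone in CER, 28.0 with vehicle and 19.5 with dexamethasone in PVN, 26.9 with vehicle and 25.6 with dexamethasone in vDG and 25.4 with vehicle and 24.0 with dexamethasone in dCA1. Hbegf fell in PFC, with a log2 fold change of -0.47 ± 0.14 (adjusted p = 0.0330). The fold change was -0.48 ± 0.16 (adjusted p = 0.0627) in AMY, -0.48 ± 0.18 (adjusted p = 0.150) in dDG and -0.40 ± 0.18 (adjusted p = 0.248) in vCA1, each with an unadjusted p under 0.05. With the replicate number as a block Hbegf also fell in AMY, by 0.47 on the log2 scale (edgeR, adjusted p = 0.0216). In PVN, vDG, dCA1 and CER it was -0.26 ± 0.16, -0.20 ± 0.13, -0.19 ± 0.17 and -0.08 ± 0.15. The PFC call was close to the threshold: it was lost with the authors' variance-stabilised values and limma (adjusted p = 0.0509). Summed per animal, the level was 28.8 ± 3.37 CPM (SD, n = 13) with vehicle and 23.6 ± 1.92 CPM (SD, n = 13) with dexamethasone, and it fell by 0.29 ± 0.06 on the log2 scale (edgeR, adjusted p = 0.000281).

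The neuregulin genes Nrg1 and Nrg3, whose products bind ERBB3 and ERBB4 or ERBB4 alone, passed in no region where they could be tested. Nrg1 passed the filter in CER, PFC and PVN. In CER, vehicle libraries ran from 14.7 to 38.8 CPM with a median of 22.6, and dexamethasone libraries from 18.3 to 35.9 CPM with a median of 28.2. In PVN, vehicle libraries ran from 7.77 to 22.2 CPM with a median of 14.0, and dexamethasone libraries from 7.48 to 23.4 CPM with a median of 14.4. Its log2 fold changes were 0.26 ± 0.14 (adjusted p = 0.437) in CER, 0.20 ± 0.20 (adjusted p = 0.782) in PFC and 0.10 ± 0.18 (adjusted p = 0.897) in PVN. Nrg3 passed the filter in all regions but AMY and CER. In PFC, vehicle libraries ran from 15.0 to 36.3 CPM with a median of 27.5, and dexamethasone libraries from 15.4 to 36.5 CPM with a median of 22.6. In dCA1, vehicle libraries ran from 5.00 to 28.2 CPM with a median of 15.7, and dexamethasone libraries from 7.73 to 42.9 CPM with a median of 21.2. The groups overlapped, and the fold changes ran from -0.25 ± 0.13 (adjusted p = 0.410) in PFC to 0.31 ± 0.20 (adjusted p = 0.590) in dCA1. In the 5 regions where Nrg1 did not pass the filter its medians, in CPM, were 12.0 with vehicle and 15.5 with dexamethasone in AMY, 9.39 with vehicle and 9.17 with dexamethasone in vDG, 7.16 with vehicle and 7.89 with dexamethasone in vCA1, 5.62 with vehicle and 6.00 with dexamethasone in dDG and 4.21 with vehicle and 4.42 with dexamethasone in dCA1. Without the filter its log2 fold change lay between -0.12 and 0.27 over the 8 regions, that of Nrg3 between -0.25 and 0.31, and neither had an unadjusted p under 0.05. In the sums per animal the log2 differences were 0.14 ± 0.09 for Nrg1 (adjusted p = 0.377, edgeR) and -0.01 ± 0.07 for Nrg3 (adjusted p = 0.961, edgeR).

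**Figure D4:**
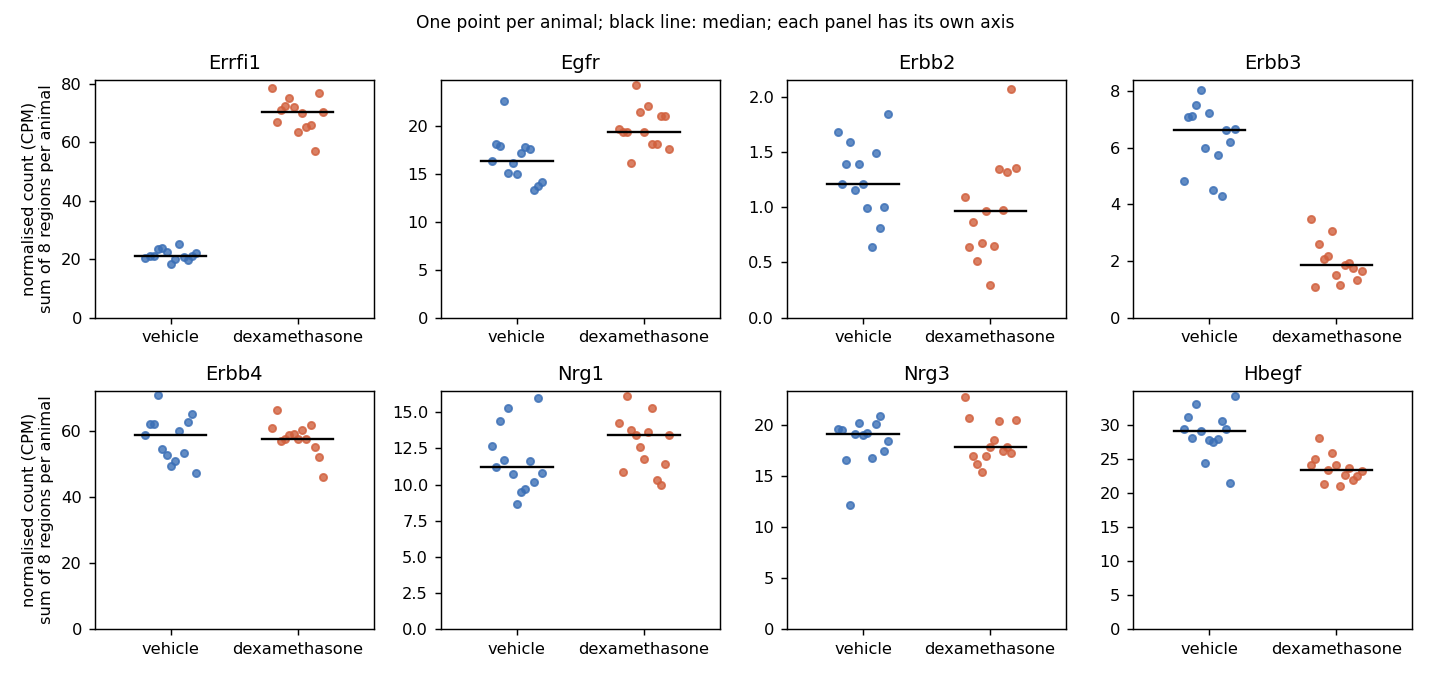
Level in CPM (vertical axis, linear, from 0) of each gene in counts summed over the 8 regions of an animal, with 13 vehicle animals in blue, 13 dexamethasone animals in orange and the group median as a black line. The groups are separate for Errfi1, where dexamethasone animals reach 57.1 to 78.4 CPM, and for Erbb3, and they overlap in the other 6 panels. Of all genes tested in these sums 2.97% had groups that do not overlap, and 18.6% passed the test.

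For comparison, Errfi1 in the same sums had 106 to 162 counts per vehicle animal and 313 to 467 per dexamethasone animal, and rose by 1.69 ± 0.05 on the log2 scale (edgeR, adjusted p = 4.27e-23), or 3.23-fold. Of the 7 members tested in the sums, 2 rose (Errfi1, Egfr), 2 fell (Erbb3, Hbegf) and 3 passed in neither direction. The Erbb3 call is a description, as said above. Erbb2 passed the filter there in neither group. With only the animals whose libraries are all in the variance-stabilised tables, the same 4 genes passed, Erbb3 at -1.65 ± 0.17.

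The vehicle libraries show how the same genes are distributed over the untreated regions, with the animal as a block in the fit. 5 of the 6 members that passed the filter differed among regions, Erbb4, Nrg1, Nrg3, Errfi1 and Egfr, where 73.3% of all genes did, so this share is near the background. Here n is 14 in PVN and vCA1 and 15 in each other region, and the regions are in descending order of their mean log2 CPM, which can differ between close neighbours from the order of the mean CPM and of the fit. Erbb4 had mean levels, in CPM ± SD, of 76.3 ± 11.2 in CER, 71.9 ± 17.3 in AMY, 70.0 ± 13.2 in PVN, 61.1 ± 16.9 in vDG, 57.1 ± 11.9 in vCA1, 49.6 ± 8.35 in PFC, 37.5 ± 11.7 in dDG and 38.2 ± 21.1 in dCA1. Between neighbours in that order only PFC and dDG differed (log2 difference 0.43 ± 0.13, adjusted p = 0.00610, edgeR). Of the 28 pairs of regions, 19 differed for Erbb4, against 31.7% of pairs over all genes.

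Nrg1 had mean levels, in CPM ± SD, of 23.3 ± 6.58 in CER, 14.5 ± 4.90 in PVN, 13.4 ± 6.06 in AMY, 12.1 ± 5.42 in PFC, 9.54 ± 5.89 in vDG, 7.53 ± 4.30 in vCA1, 6.13 ± 3.72 in dDG and 4.60 ± 2.34 in dCA1. CER and PVN differed (log2 difference 0.64 ± 0.20, adjusted p = 0.00806, edgeR), and no other neighbours did. Nrg3 had another order, with means of 27.3 ± 5.95 in PFC, 19.3 ± 6.34 in vCA1, 18.7 ± 4.63 in dDG, 18.2 ± 6.64 in dCA1, 15.8 ± 4.95 in PVN, 16.1 ± 7.35 in vDG, 12.8 ± 4.63 in CER and 12.0 ± 3.22 in AMY. PFC lay above the next region, vCA1, by 0.50 ± 0.15 on the log2 scale (adjusted p = 0.00630, edgeR), and the other neighbours were not separated. Differing pairs numbered 18 of 28 for Nrg1 and 14 of 28 for Nrg3.

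Errfi1 had mean vehicle levels, in CPM ± SD, of 27.7 ± 11.9 in vDG, 26.1 ± 6.32 in dDG, 25.5 ± 7.65 in dCA1, 23.4 ± 7.68 in CER, 19.9 ± 6.64 in vCA1, 19.0 ± 5.42 in PFC, 17.6 ± 4.06 in PVN and 16.8 ± 4.23 in AMY. No neighbours in that order differed, but 12 of 28 pairs differed, vDG lying above AMY by 0.68 ± 0.17 on the log2 scale (adjusted p = 0.000554, edgeR). Egfr levels were 20.4 ± 7.38 in CER, 19.6 ± 10.8 in vDG, 17.5 ± 5.63 in PFC, 17.1 ± 5.40 in AMY, 16.8 ± 4.94 in PVN, 16.5 ± 6.72 in vCA1, 14.4 ± 4.73 in dDG and 13.1 ± 7.01 in dCA1. No neighbours differed and 4 pairs did, and the Egfr test over regions was close to the threshold (adjusted p = 0.0494). Hbegf did not pass over regions (adjusted p = 0.0818), with levels of 34.3 ± 11.6 in AMY, 33.0 ± 12.5 in CER, 32.4 ± 14.1 in vCA1, 28.8 ± 7.65 in PFC, 27.6 ± 7.46 in vDG, 27.2 ± 7.69 in PVN, 27.8 ± 12.3 in dCA1 and 23.9 ± 8.76 in dDG, and 2 of its pairs passed the threshold.

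Erbb3 and Erbb2 were tested without the filter, where 47.7% of genes passed over regions and 17.8% of pairs did. Erbb3 passed (adjusted p = 5.65e-07), with mean levels, in CPM ± SD, of 11.4 ± 4.59 in CER, 9.56 ± 4.13 in AMY, 6.32 ± 2.62 in PVN, 6.05 ± 3.48 in vDG, 4.56 ± 3.06 in dCA1, 4.70 ± 3.44 in vCA1, 4.29 ± 2.79 in dDG and 3.43 ± 3.19 in PFC. CER lay above PVN by 0.82 ± 0.28 on the log2 scale (adjusted p = 0.0291, edgeR), while no neighbours in that order differed, AMY and CER (adjusted p = 0.642) and AMY and PVN (adjusted p = 0.178) included. Of its 28 pairs 10 differed, and all 10 had CER or AMY as the higher region. Erbb2 did not pass (adjusted p = 0.645), with means of 1.70 ± 1.45 in vDG, 1.62 ± 1.48 in PFC, 1.54 ± 1.33 in PVN, 1.49 ± 1.58 in dDG, 1.42 ± 1.21 in AMY, 1.03 ± 1.21 in CER, 0.863 ± 1.16 in dCA1 and 0.820 ± 0.939 in vCA1, all below the lowest level that 3 counts give in a library, 1.95 CPM.

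**Figure D5:**
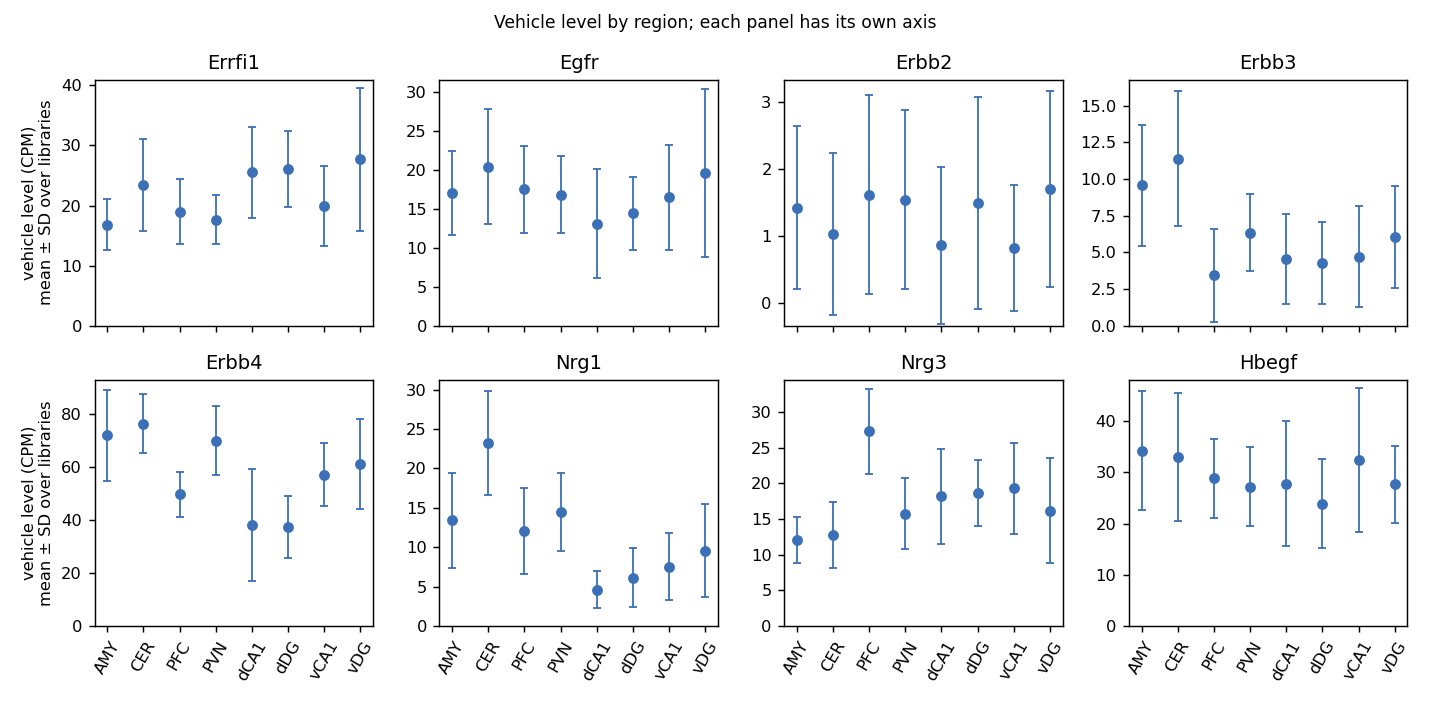
Vehicle level in CPM (vertical axis, mean ± SD over 14 or 15 libraries, each panel on its own axis) of the 8 genes in the 8 regions (horizontal axis). Nrg1 peaks in CER, Nrg3 in PFC, Erbb4 is lowest in dDG and dCA1, and Erbb3 is highest in CER and AMY.

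The genes whose log2 CPM followed a member most closely over all vehicle libraries were listed for the 7 members with a mean of at least 5 CPM, among 11517 genes. For Erbb3 they were Litaf (r = 0.71, within regions 0.55), Tmem88b (0.70) and Sept4 (0.70). For Egfr they included Fgf1 (r = 0.52, within regions 0.54) and Rassf2 (0.51). Erbb4 was followed by Nap1l5 (r = 0.74, within regions 0.46), Epb41l3 (0.74) and Resp18 (0.74), and Nrg1 by Sccpdh (r = 0.70, within regions 0.28), Bend6 (0.70) and Col16a1 (0.69). Nrg3 stood closest to Pcsk2 (r = 0.67, within regions 0.48), Stx1a (0.60) and 2900060B14Rik (0.59). Errfi1 and Hbegf had the weakest leading values, Slc13a3 (r = 0.48, within regions 0.35) and Fgfr1 (0.45) for the former and Dennd5a (r = 0.47, within regions 0.47), Hdac5 (0.47) and Tsc22d4 (0.46) for the latter. These are Pearson correlations across libraries that share animals, regions and depth, given as a description.

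Other genes of the pathway were counted by role, a gene tested in several regions counting once in each and the regions sharing animals. Over all genes 3.23% of 71817 such tests rose and 1.94% fell. With the replicate number as a block, which leaves out libraries without a partner, 3.83% of 71583 rose and 2.55% fell. The blocked values below are edgeR log2 fold changes, and these genes were named after their values were seen. Of 8 further ligand genes, Tgfa in 8 regions and Nrg2 in 4 could be tested, and 0 of 12 tests passed in either direction. With the block Tgfa, another ligand of EGFR, fell in AMY (-0.59 ± 0.17, adjusted p = 0.0288). Of 8 genes that process the ligands, 3 of 48 tests rose and 0 fell, all of them Rhbdf1, an inactive rhomboid protein that acts in ligand release. Rhbdf1 rose by 0.67 ± 0.08 on the log2 scale in the sums per animal (edgeR, adjusted p = 5.94e-08). In single regions the filter admitted it only in CER, PFC and vDG, with log2 fold changes of 0.83 to 0.97, and since the filter admits such a gene through the group where it is high, these 3 calls are a description. Among the 5 regions where Rhbdf1 was not tested, its mean went from 8.55 CPM with vehicle to 10.4 CPM with dexamethasone in AMY, from 11.3 to 12.8 CPM in PVN, from 9.60 to 12.3 CPM in dDG, from 11.6 to 16.3 CPM in dCA1 and from 8.53 to 18.6 CPM in vCA1.

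Among 22 other receptor inhibitors and genes of receptor turnover, 6 of 128 tests rose and 8 fell, all 8 falls being those of Spry2. With the block 6 rose and 9 fell. Lrig1, which rose in PFC, then fell in PVN (-0.38 ± 0.11, adjusted p = 0.0251). Ptpn1 also rose in dCA1 (0.38 ± 0.09, adjusted p = 0.00808), and Cblb no longer passed in vCA1 (0.42 ± 0.13, adjusted p = 0.0686). Spry2, a Sprouty protein that restrains signalling below receptor tyrosine kinases, thus fell in 8 of 8 regions while Errfi1 rose, with log2 fold changes from -0.90 to -0.36. In dCA1, where its change was largest, Spry2 ran from 60.3 to 148 CPM (median 106) with vehicle and from 42.9 to 67.7 CPM (median 53.8) with dexamethasone. The median over this list lay between -0.09 and 0.05 by region, and that over all genes between -0.02 and 0.00. Of 37 adaptors and kinases, 4 of 264 tests rose and 8 fell. Gab1, a docking protein below ErbB receptors, fell in 6 regions by values from -0.86 to -0.60, and in CER it ran from 39.5 to 79.0 CPM (median 63.9) with vehicle and from 21.0 to 46.3 CPM (median 33.7) with dexamethasone. Ptpn11, the phosphatase SHP2 that binds Gab1, rose in AMY, CER and PVN by 0.45 to 0.61. With the block 7 of the tests in this list rose and 12 fell. The added rises were Stat5b in dCA1 (0.63 ± 0.19, adjusted p = 0.0388), Braf in dDG (0.24 ± 0.06, adjusted p = 0.0201) and Fyn in CER (0.22 ± 0.07, adjusted p = 0.0321). The added falls were Pik3r3 in dDG (-0.50 ± 0.14, adjusted p = 0.0208), Araf in PVN (-0.44 ± 0.13, adjusted p = 0.0375), Pik3ca in PVN (-0.26 ± 0.07, adjusted p = 0.0161) and Pik3r1 in CER (-0.23 ± 0.07, adjusted p = 0.0441). Stat5b is a transcription factor, Braf, Araf and Fyn are kinases, and the Pik3 genes encode subunits of PI3-kinase.

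Of 12 transcripts commonly induced below the pathway, 0 of 68 tests rose and 18 fell, 26.5% against 1.94% over all genes, and the list's median lay between -0.48 and -0.16 by region. This list was chosen with earlier results of these data known, and 7 of the 18 falls were those of Ccnd1, so the share is a description. Ccnd1, which encodes cyclin D1 of the cell cycle, fell in all regions but dDG, with log2 fold changes from -0.97 to -0.49. In AMY it ran from 73.2 to 135 CPM (median 99.2) with vehicle and from 42.3 to 85.7 CPM (median 57.5) with dexamethasone, ranges that overlap. Ier3, an immediate early gene, fell in AMY, PFC, PVN and dDG by values from -0.99 to -0.69, and Phlda1 in AMY, CER, PFC and PVN by values from -0.55 to -0.38. The remaining falls were Etv5 in CER and vCA1 and Etv1 in vCA1, named after their values were seen. Egr1, Dusp6 and Junb passed in none of their 8 regions. With the block Etv5 (-0.81 ± 0.19, adjusted p = 0.00770) and Ccnd1 (-0.51 ± 0.14, adjusted p = 0.0207) also fell in dDG. Junb then rose in PVN (0.51 ± 0.16, adjusted p = 0.0431), and Phlda1 no longer passed there (-0.35 ± 0.12, adjusted p = 0.0794). These transcripts answer to many inputs, and summed endothelial and microglial markers were lower in the same animals, as given above, whose part in these falls was not tested.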

How the data were processed

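Counts per gene in every library were taken as deposited. The submitters' processing notes name FastQC 0.11.4, cutadapt, UMI-tools 0.5.4, STAR 2.6.0a, featureCounts 1.6.4, DESeq2 1.30.1, R 4.0.5 and the build mm10. The strand setting and the annotation release are not given in the sources used here. The second deposited set holds variance-stabilised values made by the authors on the log2 scale, with 228 libraries, and was used as an alternative.

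Each region was fitted apart with edgeR 4.0.16 (R 4.3.3), with the quasi-likelihood test, TMM scaling, edgeR's default filter on low counts and Benjamini-Hochberg adjustment over all genes tested, at a threshold of 0.05. Levels among regions were tested in vehicle libraries with the animal as a block, and responses among regions by an interaction over all libraries. CPM values share 1 TMM scaling over all libraries. Correlations used log2 CPM with a prior count of 2. Library totals of 268538 to 1451422 counts limit the precision of low genes. Symbols were matched for 27645 of 27998 identifiers. No pair of libraries in a group agreed within sampling noise. The fits were tested on simulated data.

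Vehicle and dexamethasone libraries of the same number in a region come from different animals but, per the labels, shared the plate and the researcher in 115 of 115 pairs and the date of punching in 109, so the number stands for a shared batch. Their deviations from the group means correlated by -0.12 to 0.45. The main fits have no such block, and its value is given where it changes the call of a member or of a gene in a pathway list.

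By rule, the text names the 8 members, at most 6 genes of each pathway list that passed in at least 3 regions, the 3 genes most correlated with a member and genes of marker lists. Other pathway genes were named after their values were seen. The members and lists were chosen with earlier results of these data known. Alternatives were RLE and upper-quartile scaling, DESeq2 1.42.0, no filter, a replicate block, date of punching and plate, RNA integrity, surrogate variables (sva 3.50.0), limma 3.58.1 on the deposited log2 values, the libraries of those tables alone, and dentate marker level as a covariate. The sums per animal and their alternatives were added after the data had been seen. A few genes among those most correlated with a member are not reported here.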

Additional observations from a re-analysis of the deposited data

Results flagged for a closer look

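Prox1, a transcription factor of dentate granule cells that served as a marker for the check of region labels, differed between regions in its response to dexamethasone (edgeR's interaction of region and treatment, adjusted p = 0.00365). Its log2 fold change was -1.04 ± 0.14 in CER (adjusted p = 3.72e-07, edgeR), -0.47 ± 0.13 in AMY, -0.35 ± 0.11 in PVN and 0.80 ± 0.25 in vCA1 (adjusted p = 0.0522). In vCA1, other dentate markers were higher in the dexamethasone libraries as well, Dsp by 1.95 ± 0.40 (adjusted p = 0.000788, edgeR) and Npnt by 1.22 ± 0.31 (adjusted p = 0.00837, edgeR). In CER, the other dentate markers that could be tested did not pass, Stxbp6 at -0.13 ± 0.11, Npnt at -0.12 ± 0.24 and Plk5 at 0.36 ± 0.24. The part of the dentate content of the punches in the Prox1 result was not tested.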

How the results depend on the processing

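Of the 41 tests of a member in a region, 9 passed, 8 of them of Errfi1 and 1 of Hbegf. Over all genes 3.23% of such tests rose and 1.94% fell. Settings that also test members below the filter called 14 with DESeq2 and 14 without the filter, in both cases the same 9 and 5 of Erbb3, and 12 with the authors' log2 values and limma, of which 4 were of Erbb3. The other 8 alternatives called 9 to 11. Among the recomputed fold changes of the members, 426 kept their direction and their side of the threshold and none reversed. The 4 others were Egfr with surrogate variables, which passed in dCA1 (0.90, adjusted p = 0.00190) and vDG (0.59, adjusted p = 0.00974), Hbegf in AMY with the replicate block (-0.47, adjusted p = 0.0216) and Hbegf in PFC with the authors' log2 values and limma (-0.21, adjusted p = 0.0509). The cause was not tested.

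Genes passing in dDG numbered 316, against 510 with DESeq2, 543 with the replicate block, 676 with surrogate variables and 479 with the authors' log2 values. Surrogate variables gave 789 in AMY, 911 in PFC, 672 in dCA1, 758 in vCA1 and 603 in vDG, and the dentate covariate 280 in vCA1. Of the 115 same-numbered pairs, 64 correlated over 0.1, and 30 vehicle libraries correlated best with their own number. With the replicate block 10 members' tests passed, Erbb3 without the filter passed in 5 regions as before, and beside Hbegf in AMY no other call of a member changed. Among markers the block added falls of Aqp4 in PFC and PVN, Gja1 and Mog in dDG, Pvalb in PVN, Stxbp6 in dCA1 and Hbb-bs, Hba-a1 and Hba-a2 in PFC. It added rises of Olig1 in CER, Pvalb in dCA1, Ttr in PFC and Dsp in dDG, and Ttr no longer passed in vCA1.

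In vehicle libraries 5 members differed among regions, 4 without the block of animals, where Egfr had an adjusted p of 0.0507, and 6 without the 7 libraries, where Hbegf passed at 0.0252. Without the filter Egfr was lost as well (adjusted p = 0.0577) and Erbb3 passed, which again makes 5. In the sums per animal 4 members passed, and 3 with limma on genes of at least 5 CPM, a filter that left Erbb3 out. Limma on the genes edgeR had tested was added after that was seen and gave 4, with Erbb3 at -0.90. Depth limits Erbb2 and, in single regions, Erbb3.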

Other observations

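In the counts summed per animal, which were chosen after the region values had been seen, 3 further genes of the lists are given here, also picked after their values were seen. Stat5a, a transcription factor that ErbB4 and cytokine receptors can activate, rose by 1.00 ± 0.15 on the log2 scale (adjusted p = 3.03e-06, edgeR). Ptprj, a receptor-type phosphatase that acts on EGFR, rose by 0.44 ± 0.10 (adjusted p = 0.000995, edgeR). Cldn5, the tight-junction protein of brain endothelium, fell by 1.45 ± 0.14 (adjusted p = 4.29e-10, edgeR).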
